A study of Sus scrofa with 6 samples.

Results

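Expression of the genes that lengthen and desaturate fatty acids was examined in the longissimus dorsi, a back muscle sold as loin, of QingYu pigs, a Chinese breed kept for both meat and fat. The set was chosen by gene symbol and holds 10 genes, namely the desaturases FADS1, FADS2 and FADS3, the elongases ELOVL1, ELOVL5 and ELOVL7, the reductase HSD17B12, the dehydratases HACD1 and HACD2, and the reductase TECR. Of these, 9 were found among the 12671 loci of the expression table. No row of the table was matched to TECR, so TECR was not analysed here. The PP group holds 3 libraries from muscle at the growth plateau phase (PP, 395 days of age), and the IP group holds 3 libraries from muscle at the inflection point of the growth curve (IP, 178 days), when growth is fastest. All libraries came from female pigs of the breed on the same type of diet, given as biological replicates. The age field of the sample labels reads 178 days for every library, so the ages are those of the growth protocol. No agent was given and no gene was altered.

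Fatty acids are lengthened in the endoplasmic reticulum by a cycle of condensation, reduction, dehydration and a further reduction. An elongase of the ELOVL family joins malonyl-CoA to the acyl chain, HSD17B12 reduces the ketone, an HACD enzyme removes water and TECR completes the cycle. The FADS desaturases add double bonds, and alternate with elongation when linoleic and linolenic acids from the diet are turned into arachidonic, eicosapentaenoic and docosahexaenoic acids. Skeletal muscle holds such acids mainly in its membrane phospholipids, and liver is known as the main site of their synthesis.

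The upstream sequences of HSD17B12, ELOVL5, FADS3 and FADS2 are shown here because HSD17B12 and ELOVL5 had the log2 fold changes farthest from 0 among the tested members, and because FADS3 and FADS2 are neighbours on the chromosome whose phases overlapped for FADS2 and not for FADS3. Each is the run of 250 bases just before the gene start annotated by RefSeq on Sscrofa11.1, read from 5′ to 3′ on the strand of the gene. The window of HSD17B12 is chr2:18611762-18612011 on the minus strand, that of ELOVL5 is chr7:46932946-46933195 on the minus strand, that of FADS3 is chr2:9607377-9607626 on the plus strand and that of FADS2 is chr2:9666667-9666916 on the minus strand. Capitals mark a match on either strand to the CCAAT box (letters CCAAT), to the GC box (letters GGGCGG), to an E-box (letters CACGTG, or else with the centre changed, CAGCTG) or to a form of the sterol regulatory element (letters TCACNCCAC).
HSD17B12: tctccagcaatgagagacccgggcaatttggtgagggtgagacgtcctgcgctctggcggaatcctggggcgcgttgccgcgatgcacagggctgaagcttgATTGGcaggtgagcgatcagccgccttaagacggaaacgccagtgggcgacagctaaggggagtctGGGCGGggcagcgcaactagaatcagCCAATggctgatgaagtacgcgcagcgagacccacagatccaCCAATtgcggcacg
ELOVL5: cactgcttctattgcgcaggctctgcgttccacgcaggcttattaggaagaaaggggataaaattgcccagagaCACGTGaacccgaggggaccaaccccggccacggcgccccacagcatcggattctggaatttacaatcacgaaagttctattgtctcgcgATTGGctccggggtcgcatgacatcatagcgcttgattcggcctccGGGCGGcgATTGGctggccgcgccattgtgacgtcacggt
FADS3: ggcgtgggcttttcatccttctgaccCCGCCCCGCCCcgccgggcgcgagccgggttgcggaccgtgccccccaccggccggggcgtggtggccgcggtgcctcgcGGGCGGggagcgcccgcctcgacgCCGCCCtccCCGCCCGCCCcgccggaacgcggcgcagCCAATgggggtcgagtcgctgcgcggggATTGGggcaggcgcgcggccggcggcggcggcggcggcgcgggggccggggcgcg
FADS2: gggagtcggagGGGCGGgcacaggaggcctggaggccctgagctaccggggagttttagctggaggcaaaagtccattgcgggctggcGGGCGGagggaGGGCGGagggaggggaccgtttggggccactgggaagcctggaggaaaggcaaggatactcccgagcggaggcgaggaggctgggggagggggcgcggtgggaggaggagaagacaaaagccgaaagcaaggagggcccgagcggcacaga

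The HSD17B12 window held 3 CCAAT matches and 1 GC box match. The ELOVL5 window held 2 CCAAT matches, 1 GC box match and 1 CACGTG match that starts 176 bases before the gene. The FADS3 window held 2 CCAAT matches and 6 GC box matches, some of which overlap each other, and the FADS2 window held 3 GC box matches and no CCAAT match. Windows of this kind were read for 9 of the 10 genes, TECR included, and FADS1 was left out because its RefSeq model is marked as incomplete. A GC box match was in 9 of these 9 windows and in 46.0% of 19278 windows of protein-coding genes. A CCAAT match was in 6 of the 9 and in 31.9% of all windows, and CACGTG was in 1 of the 9 and in 6.42% of all windows. CAGCTG (13.6% of all windows) and TCACNCCAC (0.799%) were in none of the 9. The members' windows are rich in G and C, at 57.6% to 85.6% against a median of 57.6% over all windows, and a match is a description of the letters only.

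Expression is given as TPM, the share of a transcript among all transcripts of a library, corrected for length, so levels of different genes can be compared within a library. The values of each library sum to 998729 to 999437 TPM, and TPM hold no number of reads per gene, so the depth behind a value is not known. Libraries did not separate by phase over all genes. On the first principal component of the tested loci, which held 64.3% of the variance, PP replicates 1, 2 and 3 lay at -48.9, 23.1 and -28.3, against 33.4, 55.9 and -35.1 for IP replicates 1, 2 and 3, so IP replicate 3 lay among the PP values and PP replicate 2 nearer to IP replicates 1 and 2. In correlation, IP replicate 3 was nearest to PP replicate 1 (r = 0.977), whereas PP replicate 2 was nearest to PP replicate 3 (r = 0.967) with IP replicate 1 close behind (r = 0.965). Values without IP replicate 3 and PP replicate 2 are given beside the members whose phases did not overlap. Those libraries were left out for their place on this component, so more calls follow from that choice. The median TPM of all loci was 2.98, 4.52 and 3.18 in PP replicates 1, 2 and 3, against 4.69, 6.12 and 3.03 in IP replicates 1, 2 and 3. A single assembled locus took 29.0% to 35.8% of the TPM in PP libraries, against 21.8% to 31.9% in IP libraries. Of 6 skeletal muscle markers, 5 are in the table and summed to 17360 to 25650 TPM in PP muscle and to 19380 to 32820 TPM in IP muscle.

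The 9 genes had lower mean TPM in PP muscle than at the IP, and the means of IP libraries were 1.09 to 2.62 times those of PP libraries. The test was limma on log2(TPM + 1), run over the 10896 loci that reached 1 TPM in 3 or more libraries, with p-values adjusted over all of them by the method of Benjamini and Hochberg. The log2 fold change is PP minus IP. Of the 9 genes, 8 passed the filter on low values. FADS1 did not, and FADS3 passed through its IP libraries alone, so that FADS3 had to differ in order to be tested. FADS3 is therefore left out of the counts that follow, which are over the other 7, and 74 of all tested loci were likewise under 1 TPM in every PP library. None of the 8 passed an adjusted p under 0.05 in limma (0.353 to 0.889), where 0.147% of all tested loci did (0.101% lower and 0.0459% higher at the PP). At an unadjusted p under 0.05, 3 of the 7 were lower at the PP (HSD17B12, ELOVL5 and HACD1) and none was higher, and 5.86% of all tested loci were lower at this threshold and 1.06% higher. This count was 1 without IP replicate 1, IP replicate 2, PP replicate 1 or PP replicate 3, and 2 without PP replicate 2. The log2 fold change lay below 0 for 7 of the 7 and for 82.6% of all tested loci. The median log2 fold change was -0.46 for the 7 genes and -0.25 for all tested loci, and 5 of the 7 lay below the median of all loci, where 50.0% of loci lie by definition. With each library rescaled by its median ratio to the others, the medians were -0.24 and 0.00, 5 of the 7 and 49.9% of all tested loci lay below 0, and 2 of the 7 (ELOVL5 and HSD17B12) and 4.09% of all tested loci were lower at an unadjusted p under 0.05. The phases did not overlap for 3 of the 7, HSD17B12, ELOVL5 and HACD1, where 10.8% of all tested loci were lower without overlap and 2.02% higher. After scaling 1 of the 7, ELOVL5, was lower without overlap, and 6.81% of all tested loci were. FADS1 and FADS3 did not overlap either and are described below by their values. Changes are therefore also given on this scale where they differ in kind.

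**Figure D1:**
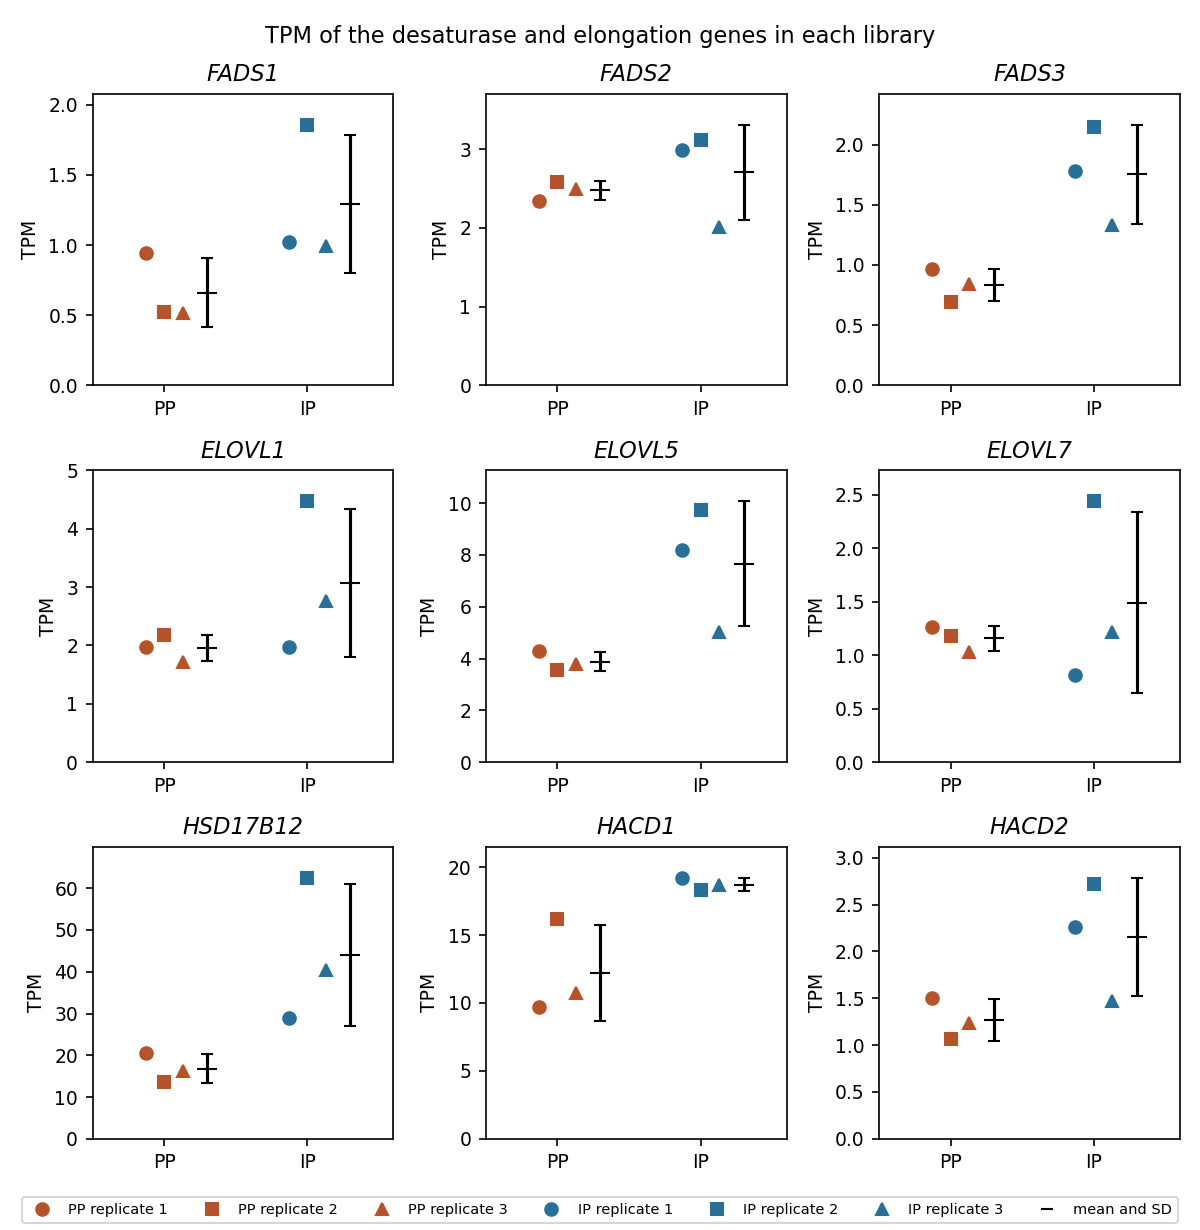
TPM (vertical axis, from 0) of the 9 genes in each library, with PP libraries on the left and IP libraries on the right of each panel, 1 symbol per replicate, and the mean with its SD (n = 3 libraries) as a bar. HSD17B12, ELOVL5, FADS3, HACD1 and FADS1 show no overlap of the phases, and IP replicate 2 (blue square) is the highest library for 8 of the 9 genes. That library also has the highest median TPM of all loci.

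The levels of the 9 genes spanned a wide range. HSD17B12 was the most abundant, with a mean of 30.4 TPM over the 6 libraries, followed by HACD1 (15.5 TPM), ELOVL5 (5.77 TPM), FADS2 (2.59 TPM), ELOVL1 (2.51 TPM), HACD2 (1.71 TPM), ELOVL7 (1.32 TPM), FADS3 (1.30 TPM) and FADS1 (0.976 TPM). HACD1 lay above ELOVL5, ELOVL5 above FADS2 and FADS3 above FADS1 in 6 of 6 libraries. The other neighbours in this order changed places in at least 1 library. HSD17B12 lay above HACD1 in 5 of 6 libraries, FADS2 above ELOVL1 in 4, ELOVL1 above HACD2 in 5, HACD2 above ELOVL7 in 5 and ELOVL7 above FADS3 in 4. The 9 genes together summed to 43.5, 41.7 and 38.5 TPM in PP replicates 1, 2 and 3, against 67.2, 107 and 73.9 TPM in IP replicates 1, 2 and 3, and without HSD17B12 to 22.9, 28.0 and 22.4 TPM in PP muscle, against 38.2, 44.8 and 33.5 TPM in IP muscle. The sums of the phases did not overlap with or without HSD17B12. These are sums of TPM as deposited, on which 82.6% of all tested loci had a log2 fold change below 0, and no scaled sums were computed.

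The desaturases lie together on chromosome 2 of Sscrofa11.1, FADS3 from 9607627 to 9627352 on the plus strand, FADS2 from 9633941 to 9666666 on the minus strand and FADS1 from 9735425 to 9747405 on the plus strand. The annotated starts of FADS2 and FADS1 face away from each other with 68.8 kb between them. The RefSeq model of FADS1 is marked as incomplete, so its true start, and with it this distance, may differ. FADS2 (ENSSSCG00000013072.3) encodes the enzyme of the first desaturation of linoleic and linolenic acids. FADS2 had 2.34, 2.58 and 2.50 TPM in PP replicates 1, 2 and 3, against 2.99, 3.11 and 2.01 TPM in IP replicates 1, 2 and 3. Its phases overlapped, since IP replicate 3 was the lowest library and IP replicates 1 and 2 the highest. The log2 fold change was -0.08 (95% confidence interval -0.63 to 0.47, limma adjusted p = 0.889), so a change of either sign within this interval could not be told from none. After median-ratio scaling it was 0.16 (-0.20 to 0.52), with the opposite sign.

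FADS1 (ENSSSCG00000024015.2) encodes the desaturase that acts later in the pathway and makes arachidonic acid. FADS1 had 0.946, 0.520 and 0.514 TPM in PP replicates 1, 2 and 3, against 1.02, 1.86 and 0.996 TPM in IP replicates 1, 2 and 3. Each PP library lay below each IP library, although PP replicate 1 and IP replicate 3 were close to each other. The difference in mean log2(TPM + 1) was -0.46 (exact permutation test, 2-sided, p = 0.1, the smallest p that 3 libraries against 3 can give). After median-ratio scaling the phases overlapped and the difference was -0.28 (exact permutation test, p = 0.2). Without IP replicate 3 and PP replicate 2 the difference was -0.49, with no test.

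FADS3 (ENSSSCG00000013073.3) encodes another member of the family, known in mammals for desaturating the backbone of sphingolipids. FADS3 had 0.964, 0.695 and 0.845 TPM in PP replicates 1, 2 and 3, against 1.78, 2.15 and 1.33 TPM in IP replicates 1, 2 and 3. The phases did not overlap, and PP libraries averaged 0.835 ± 0.135 TPM and IP libraries 1.76 ± 0.410 TPM (SD, n = 3 each). FADS3 passed the filter through its IP libraries alone and so had to differ in order to be tested, which limits each of its p-values. The log2 fold change was -0.58 (standard error 0.21, limma adjusted p = 0.636, unadjusted p = 0.0271). The phases also did not overlap after median-ratio scaling, with a log2 fold change of -0.38. Without IP replicate 3 and PP replicate 2 it was -0.64 (limma adjusted p = 0.0531), in a setting where 3199 of the 10896 tested loci passed. RAB3IL1, the gene before FADS3 on the chromosome, which encodes an exchange factor of a Rab protein, had 1.95, 1.36 and 1.49 TPM in PP replicates 1, 2 and 3, against 2.73, 2.48 and 1.95 TPM in IP replicates 1, 2 and 3. TMEM258, a subunit of the enzyme that glycosylates proteins, lies beyond FADS1 with FEN1 between them. It had 140 to 173 TPM in PP muscle and 130 to 173 TPM in IP muscle.

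The coding strands of FADS2 and FADS3 are overlapped by annotated antisense non-coding RNAs, 2 across FADS2 and 1 across FADS3, and 1 such RNA also overlaps HSD17B12. These overlaps are of whole gene spans, and overlap of exons was not checked. The use of strand in counting is not stated. Where exons do overlap, reads of these genes may therefore not be told apart from reads of their antisense partners.

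Among the elongases, ELOVL5 was the most abundant. ELOVL5 (ENSSSCG00000024149.2) lengthens polyunsaturated acids between the steps of FADS2 and FADS1, and lies on chromosome 7 from 46860768 to 46932945. It had 4.28, 3.57 and 3.80 TPM in PP replicates 1, 2 and 3, against 8.19, 9.75 and 5.02 TPM in IP replicates 1, 2 and 3. All PP libraries lay below all IP libraries, and IP replicate 3 was the IP library nearest to the PP. The log2 fold change was -0.79 (standard error 0.29, limma adjusted p = 0.634, unadjusted p = 0.0264). After median-ratio scaling the phases still did not overlap, with 5.45, 3.17 and 4.59 scaled TPM in PP muscle, against 6.97, 6.57 and 6.14 scaled TPM in IP muscle, and the log2 fold change was -0.51. Across the 18 alternative settings run, the log2 fold change of ELOVL5 ranged from -1.03 to -0.49. Without IP replicate 3 and PP replicate 2 it was -0.98, with a limma adjusted p of 0.0295, in a setting where 3199 loci passed and whose libraries were left out for their place on the first principal component.

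ELOVL1 (ENSSSCG00000035238.1) lengthens saturated and monounsaturated acids to the very long chains used in sphingolipids, and lies on chromosome 6 from 167881357 to 167886125. It had 1.97, 2.18 and 1.72 TPM in PP replicates 1, 2 and 3, against 1.98, 4.47 and 2.76 TPM in IP replicates 1, 2 and 3. The phases overlapped through IP replicate 1 (log2 fold change -0.42, 95% confidence interval -1.07 to 0.24, limma adjusted p = 0.805). For ELOVL1 the value was -0.18 without IP replicate 2, its highest library, and -0.19 after median-ratio scaling. ELOVL7 (ENSSSCG00000035012.1), which acts mainly on saturated long-chain acids, lies on chromosome 16 from 39588122 to 39680273. It had 1.26, 1.18 and 1.03 TPM in PP replicates 1, 2 and 3, against 0.811, 2.44 and 1.22 TPM in IP replicates 1, 2 and 3. Both the highest and the lowest of its values were IP libraries, and the log2 fold change was -0.15 (95% confidence interval -0.79 to 0.48, limma adjusted p = 0.835). For ELOVL7 the sign changed to 0.04 after median-ratio scaling and to 0.10 without IP replicate 2.

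HSD17B12 (ENSSSCG00000021739.2) catalyses the reduction that follows condensation in the elongation cycle and serves all ELOVL enzymes. It lies on chromosome 2 from 18461487 to 18611761. HSD17B12 had 20.5, 13.7 and 16.1 TPM in PP replicates 1, 2 and 3, against 28.9, 62.4 and 40.4 TPM in IP replicates 1, 2 and 3. The phases did not overlap, and PP libraries averaged 16.8 ± 3.45 TPM and IP libraries 43.9 ± 17.0 TPM (SD, n = 3 each). This was the largest log2 fold change among the 8 tested members, at -1.29 (standard error 0.32, 95% confidence interval -2.03 to -0.54, limma adjusted p = 0.353, unadjusted p = 0.00414). It was also the only one of the 8 past the thresholds of the study, here applied to limma, an unadjusted p under 0.05 together with a log2 fold change of 1 or more in size, which 2.24% of all tested loci passed as lower and 0.330% as higher at the PP. The value stayed below 0 in the 18 alternative settings, from -1.55 to -0.98, and was -1.18 without IP replicate 3 and PP replicate 2 (limma adjusted p = 0.0628). In that last setting 3199 of the 10896 tested loci passed. After median-ratio scaling PP replicate 1 (26.1 scaled TPM) lay above IP replicate 1 (24.6 scaled TPM), and the phases overlapped. HSD17B12 took 47.2%, 32.8% and 41.9% of the summed TPM of the 9 genes in PP replicates 1, 2 and 3, against 43.1%, 58.2% and 54.7% in IP replicates 1, 2 and 3, which overlap.

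HACD1 and HACD2 encode dehydratases of the cycle. HACD1 (ENSSSCG00000038007.1) is the form of striated muscle, and its loss causes a congenital myopathy in dogs. It lies on chromosome 10 from 43901590 to 43929441. HACD1 had 9.68, 16.2 and 10.7 TPM in PP replicates 1, 2 and 3, against 19.2, 18.3 and 18.7 TPM in IP replicates 1, 2 and 3. The IP libraries of HACD1 were close to each other, with a coefficient of variation (SD over mean) of 2.39%, while the PP libraries had 28.8%. HACD1 was the only one of the 9 with a higher coefficient of variation at the PP. FADS1 had 37.5% at the PP and 37.9% at the IP, and the other 7 had 4.88% to 20.6% at the PP and 22.3% to 56.9% at the IP. The medians over all tested loci were 25.5% at the PP and 34.8% at the IP. The log2 fold change of HACD1 was -0.61 (standard error 0.26, limma adjusted p = 0.710, unadjusted p = 0.0460), and -0.31 after median-ratio scaling, where the phases overlapped. Without IP replicate 3 and PP replicate 2 it was -0.82 (limma adjusted p = 0.0364), in a setting where 3199 of the 10896 tested loci passed.

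HACD2 (ENSSSCG00000034786.1), the widely expressed dehydratase, lies on chromosome 13 from 136834103 to 136933564. It had 1.50, 1.06 and 1.24 TPM in PP replicates 1, 2 and 3, against 2.26, 2.72 and 1.48 TPM in IP replicates 1, 2 and 3. PP replicate 1 and IP replicate 3 overlapped (log2 fold change -0.46, 95% confidence interval -1.02 to 0.10, limma adjusted p = 0.783). For HACD2 the value after median-ratio scaling was -0.24. HACD1 was thus the more abundant dehydratase in each library, and the TPM of HACD2 was 0.0655 to 0.155 times that of HACD1 at the PP, against 0.0790 to 0.149 times at the IP.

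**Figure D2:**
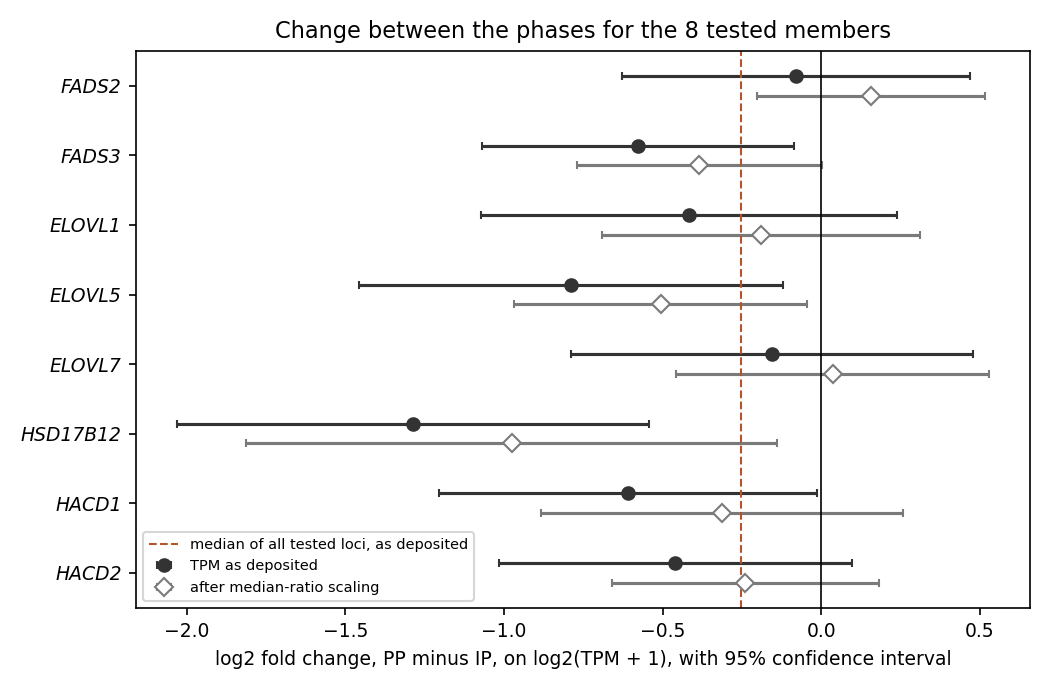
Log2 fold change, PP minus IP, on log2(TPM + 1) for the 8 tested genes (horizontal axis, points with 95% confidence intervals from limma), from TPM as deposited (filled circles) and after median-ratio scaling (open diamonds), with a dashed line at the median of all tested loci of -0.25. FADS2 and ELOVL7 lie above that line and cross to above 0 after scaling, while HSD17B12 lies at -1.29 and -0.98.

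A ratio of TPM between a pair of genes within a library does not depend on the share of TPM that other loci take, but the 1 added to each value before the test brings some of that dependence back for genes near 1 TPM, so the difference without it is given too. Ratios were compared for 6 pairs on log2((TPM + 1)/(TPM + 1)) with exact permutation tests, 2-sided, in which 3 libraries against 3 cannot go below 0.1. The ratio of FADS3 to FADS2 was 0.411, 0.269 and 0.339 in PP replicates 1, 2 and 3, against 0.595, 0.691 and 0.661 in IP replicates 1, 2 and 3. It was lower in each PP library, with a difference of -0.50 (exact permutation p = 0.1, adjusted p = 0.2 over the 6 pairs), or -0.95 with no pseudocount. The phases of FADS2 overlapped, so this ratio largely repeats the difference of FADS3 itself, which was under 1 TPM in each PP library. The ratio of FADS2 to ELOVL5 was 0.548, 0.724 and 0.658 at the PP, against 0.366, 0.319 and 0.401 at the IP. It was higher in each PP library, with a difference of 0.71 (exact permutation p = 0.1, adjusted p = 0.2), or 0.83 with no pseudocount. The ratio of ELOVL7 to ELOVL5 was 0.295, 0.332 and 0.270 at the PP, against 0.0990, 0.250 and 0.243 at the IP, also higher in each PP library (difference 0.63, exact permutation p = 0.1, adjusted p = 0.2), or 0.71 with no pseudocount. Without IP replicate 1, which had the lowest ratio of ELOVL7 to ELOVL5, the difference was 0.37. The other pairs overlapped between the phases. The difference was 0.38 for FADS2 over FADS1 (exact permutation p = 0.2), or 0.86 with no pseudocount. It was 0.37 for ELOVL1 over ELOVL5 (exact permutation p = 0.3), or 0.36 with no pseudocount, and 0.10 without IP replicate 1 and 0.58 without IP replicate 3. It was 0.15 for HACD2 over HACD1 (exact permutation p = 0.8), and its sign turned with no pseudocount (-0.08), without PP replicate 1 (-0.06) and without IP replicate 3 (-0.01). Of the 3 genes set over ELOVL5, FADS2 and ELOVL7 were thus higher relative to it in each PP library, and ELOVL1 was not. The means of FADS2 and ELOVL7 were themselves lower in PP libraries than in IP libraries, and their phases overlapped. The phases of ELOVL5 did not overlap, so both ratios largely repeat the difference of ELOVL5 itself.

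**Figure D3:**
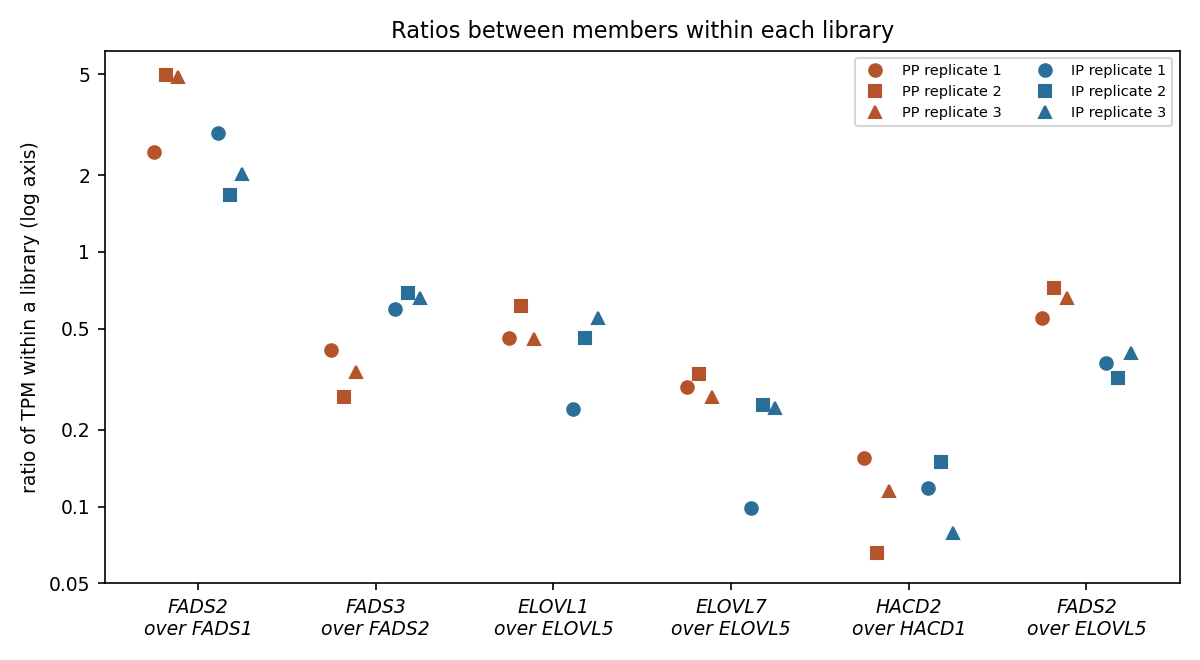
Ratio of TPM between pairs of genes within each library (vertical log axis), with PP libraries left of IP libraries for each pair and 1 symbol per replicate. The ratios of FADS3 over FADS2, ELOVL7 over ELOVL5 and FADS2 over ELOVL5 do not overlap between the phases, and the other 3 pairs do.

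Other genes of desaturation and elongation were taken from a list of 12, of which 6 are in the table and 5 were tested. SCD fell in the test over all loci and the other 4 did not pass it. Of the 5, 2 were lower at an unadjusted p under 0.05, where 5.86% of all tested loci were. The median log2 fold change of the list was -0.49. SCD, the desaturase that makes monounsaturated acids, had 0.983, 0.309 and 0.804 TPM in PP replicates 1, 2 and 3, against 53.5, 43.0 and 34.6 TPM in IP replicates 1, 2 and 3 (log2 fold change -4.72, limma adjusted p = 0.00126). SCD was under 1 TPM in each PP library and so passed the filter through its IP libraries alone, and it was called in 18 of 18 alternatives, the one with no filter included. ELOVL6, the elongase of saturated acids made by fatty acid synthase, had 0.942, 0.643 and 1.11 TPM in PP muscle, against 6.09, 10.3 and 5.73 TPM in IP muscle (log2 fold change -2.11, limma adjusted p = 0.0510). The values of SCD and ELOVL6 were thus farther apart between the phases than those of any of the 8 tested members, whose log2 fold changes lay between -1.29 and -0.08.

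Of 7 genes that supply or remove malonyl-CoA, the donor of carbon in elongation, or use it in synthesis, 6 were tested. FASN, the fatty acid synthase, fell in the test over all loci (log2 fold change -3.84, limma adjusted p = 0.0270). This call was lost with a pseudocount of 5, with a replicate block and in 5 of the 6 settings that leave out 1 library, all but that without IP replicate 3. Over those 6 settings the log2 fold change of FASN ranged from -4.30 to -3.58 and its limma adjusted p from 0.00227 to 0.219. ACACA, which makes malonyl-CoA, had 1.32 ± 0.0461 TPM in PP muscle and 4.77 ± 1.47 TPM in IP muscle (SD, n = 3 each, limma adjusted p = 0.241). At an unadjusted p under 0.05, 3 of the 6 were lower at the PP and 1 was higher, against 5.86% and 1.06% of all tested loci. The median of the list was -0.92. ACLY, which makes acetyl-CoA and was also among the lower genes, and MLYCD, the higher one, which degrades malonyl-CoA, were chosen after their values were seen. MLYCD had 6.92 ± 0.385 TPM in PP muscle and 2.56 ± 0.696 TPM in IP muscle (SD, n = 3 each, limma adjusted p = 0.265).

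Of 11 genes that supply electrons or NADPH to desaturases and reductases, 10 were tested and none passed the adjusted test. The genes PGD and IDH1, which make NADPH, had the lowest p, with 2.34 ± 0.241 and 4.52 ± 2.11 TPM in PP muscle, against 4.82 ± 0.992 and 8.62 ± 1.45 TPM in IP muscle (SD, n = 3 each, limma adjusted p = 0.488 and 0.686). With ME1, chosen after its values were seen, 3 of the 10 were lower at the PP at an unadjusted p under 0.05 and none was higher. Over all tested loci 5.86% were lower and 1.06% higher at this threshold. The list had a median log2 fold change of -0.37.

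Of 16 transcriptional regulators, 13 were tested and none passed the adjusted test. At an unadjusted p under 0.05, 1 of the 13 was lower at the PP and none was higher, near the 5.86% and 1.06% of all tested loci. This was MLX, the partner of the sugar-sensing factor ChREBP (10.4 ± 1.37 TPM in PP muscle and 16.3 ± 2.81 TPM in IP muscle, SD, n = 3 each, limma adjusted p = 0.695). SREBF1 encodes a factor known to activate FADS and ELOVL genes in liver. It had 0.606, 2.05 and 0.785 TPM in PP replicates 1, 2 and 3, against 3.78, 7.70 and 1.24 TPM in IP replicates 1, 2 and 3. These phases overlap through PP replicate 2 and IP replicate 3 (log2 fold change -1.14, limma adjusted p = 0.732). Of the 13 regulators, 12 had log2 fold changes below 0, where 82.6% of all tested loci did. The other, NR1H3, chosen after its values were seen, was higher at the PP without overlap (14.8 ± 3.68 TPM in PP muscle and 9.36 ± 1.19 TPM in IP muscle, SD, n = 3 each, limma adjusted p = 0.733). The median of this list was -0.35.

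Of 15 acyl-CoA synthetases, thioesterases and acyl-CoA carriers, 9 were tested and none passed the adjusted test. Of the 9, 1 was lower at an unadjusted p under 0.05, where 5.86% of all tested loci were. This was DBI, the acyl-CoA binding protein, with 178 ± 19.3 TPM in PP muscle and 288 ± 19.9 TPM in IP muscle (SD, n = 3 each, limma adjusted p = 0.415). ACSL1, which activates fatty acids in muscle, had 68.0 ± 12.3 TPM in PP muscle and 41.1 ± 23.7 TPM in IP muscle, which overlap.

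Of 11 tested genes of peroxisomal chain shortening, the last step in making docosahexaenoic acid, none had an unadjusted p under 0.05, and the same held for 11 tested genes of phospholipid remodelling and release of polyunsaturated acids and for 8 of very long chain sphingolipid synthesis. Their median log2 fold changes were -0.35, -0.13 and -0.32, near the -0.25 of all tested loci. The genes with the lowest p were EHHADH and DECR2, enzymes of peroxisomal oxidation (log2 fold changes -0.50 and -0.61), AGPAT3, an acyltransferase, and FABP3, the fatty acid binding protein of muscle (-0.63 and 0.97), and SPTLC2 and CERS5, which build ceramides (-0.43 and -0.42). Their adjusted p from limma were 0.758 to 0.805. FABP3 had 679, 145 and 502 TPM in PP replicates 1, 2 and 3, against 131, 266 and 188 TPM in IP replicates 1, 2 and 3, and PP replicate 2 lay among the IP values.

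**Figure D4:**
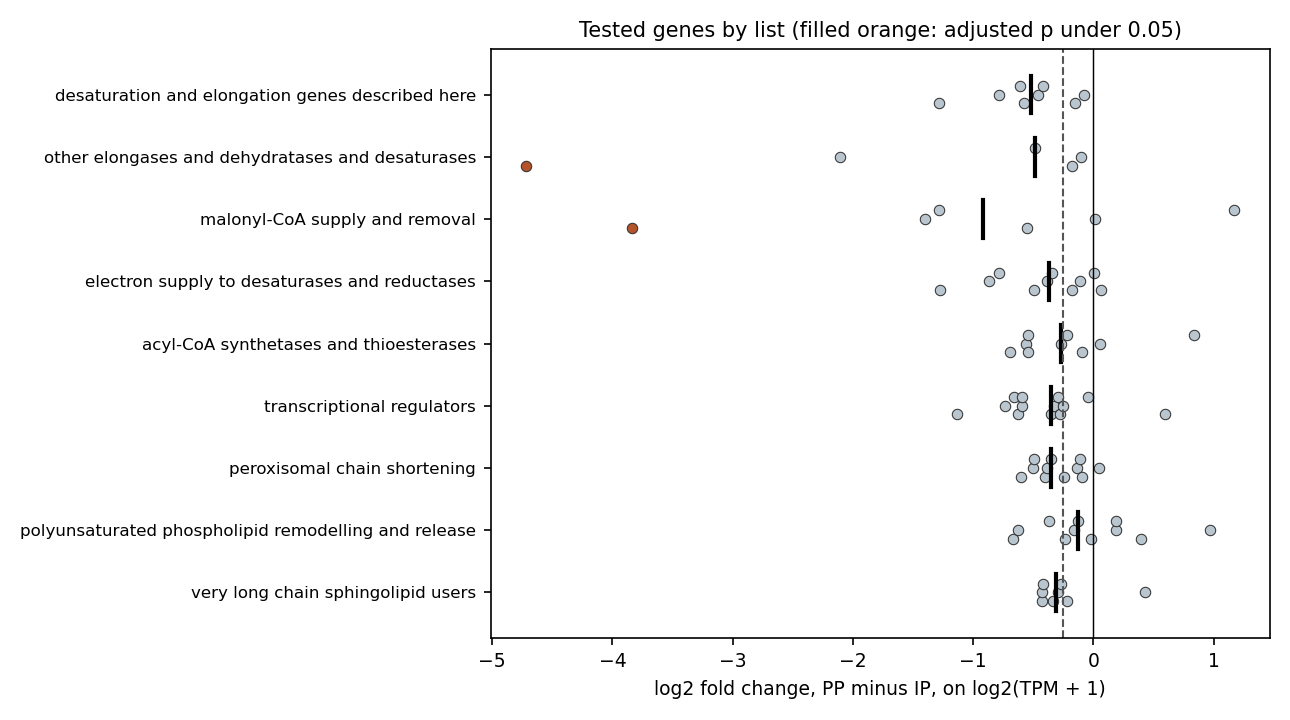
Log2 fold change, PP minus IP, on log2(TPM + 1) of each tested gene (horizontal axis), by list, with a short bar at the median of each list, a dashed line at the median of all tested loci (-0.25) and orange points for an adjusted p under 0.05. The orange points are SCD and FASN, at -4.72 and -3.84.

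Muscle samples hold other cell types, and in such bulk samples fewer cells of a type and less RNA per cell cannot be told apart. Of 10 lists of cell type markers, 9 had summed TPM that overlapped between the phases. The smooth muscle list, with 4 of its 4 markers in the table and none at 0, summed to 86.2 to 104 TPM in PP muscle and to 110 to 200 TPM in IP muscle, which do not overlap. Its most abundant gene, TAGLN, an actin-binding protein, had 69.5, 49.2 and 62.0 TPM in PP replicates 1, 2 and 3, against 52.5, 100 and 78.9 TPM in IP replicates 1, 2 and 3, which overlap. CNN1 and ACTA2 of this list, chosen after their values were seen, were lower at the PP without overlap (log2 fold changes -1.20 and -0.77, limma adjusted p = 0.308 and 0.668). The fibroblast list, with 5 of 5 markers in the table, summed to 181 to 269 TPM in PP muscle and to 181 to 327 TPM in IP muscle, most of it from DCN, a proteoglycan (146 to 211 TPM in PP muscle and 112 to 173 TPM in IP muscle). Within it the collagen genes COL1A1 and COL1A2, also chosen after their values were seen, were lower at the PP without overlap (log2 fold changes -1.48 and -0.88, limma adjusted p = 0.391 and 0.667), and the median of the list was -0.88. The adipocyte list, with 6 of 7 markers in the table, summed to 297 to 594 TPM in PP muscle and to 325 to 378 TPM in IP muscle. Most of it came from FABP4 (201 to 483 TPM in PP muscle and 177 to 307 TPM in IP muscle). This list was split, with log2 fold changes below 0 for 3 of its 6 tested markers. CIDEC, chosen after its values were seen, was lower at the PP without overlap (log2 fold change -1.44, limma adjusted p = 0.175). The endothelial list, with 4 of 5, summed to 26.6 to 32.0 TPM in PP muscle and 28.4 to 60.1 TPM in IP muscle. IP replicate 2 had the highest sum of 6 of the 10 lists (smooth muscle, endothelium, fibroblast, Schwann cell, red blood cell and satellite cell) and was the highest library for 8 of the 9 genes, all but HACD1. The median TPM of all loci was also highest in IP replicate 2, at 6.12 against 2.98 to 4.69 in the other libraries. The part of these cell types in the values of the 9 genes was not tested.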

How the data were processed

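RNA of longissimus dorsi was sequenced from 3 QingYu pigs at the PP and 3 at the IP. The authors selected RNA with a poly(A) tail, mapped reads with TopHat, built transcripts with Cufflinks and deposited TPM per gene, with 1 column per library. Their methods and the submitters' processing notes differ in the genome build, and the notes name Sscrofa11.1. Groups came from sample titles. Symbols were matched to Ensembl identifiers without version, and locations and sequences came from RefSeq on Sscrofa11.1.

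Log2 values with a pseudocount of 1 went into limma 3.58.1 under R 4.3.3 (eBayes with a trend, 2-sided, no block, threshold of 0.05), over loci with at least 1 TPM in at least 3 of 6 libraries. Exact permutation tests of single values and ratios used scipy 1.17.1 under Python 3.11.15. Pairs with TECR were not computed. The steps were tested on simulated data. TPM keep no read numbers, so precision is the spread between libraries. P-values measure the spread between these libraries. Alternatives were other pseudocounts, filters, scalings, variance models, a replicate block and libraries left out. The text names the members, from each pathway list the 2 tested genes with the lowest p and, of marker lists that move with members, the most abundant gene. The members and lists were chosen with earlier results of these data known.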

Additional observations from a re-analysis of the deposited data

How the results depend on the processing

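No tested member was called at an adjusted p under 0.05 in 17 of the 18 alternatives, although only HSD17B12, ELOVL5 and HACD1 pass the filter of at least 5 TPM. Without IP replicate 3 and PP replicate 2 together, 2 of the 8 were called, ELOVL5 and HACD1, as were 3199 of the 10896 tested loci. These libraries were left out because they lie nearer to the other phase on the first principal component, so more calls follow from that choice. The count of all called loci was 16, and 4 with a pseudocount of 5, 6 with a filter of at least 5 TPM and 2 to 22 with single libraries left out. FADS3, which passed the filter through its IP libraries alone, is left out of the next counts, which are over the other 7. Of the 7, 3 were lower at an unadjusted p under 0.05, where 5.86% of all tested loci were. With median-ratio scaling 2 were, where 4.09% of all tested loci were. This number was 1 to 3 with single libraries left out. With FADS3 counted it was 2 of 8 with quantile normalization. The share of all loci was not computed for either. The phases of 3 of the 7 did not overlap, where 10.8% of all tested loci were lower without overlap. With median-ratio scaling 1 of the 7 was lower without overlap, where 6.81% of all tested loci were. With FADS3 counted, 7 of 8 did not overlap without IP replicate 3 and PP replicate 2. Fewer libraries overlap less often, and the share of all loci was not computed there. The median log2 fold change of the members was -0.21 with a pseudocount of 5, by construction closer to 0.

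FADS2 changed sign with median-ratio scaling (0.16), quantile normalization (0.17), the 3 most abundant loci left out (0.0628) and IP replicate 2 left out (0.0017), and ELOVL7 with median-ratio scaling (0.0362), quantile normalization (0.0591) and IP replicate 2 left out (0.10). With single libraries or the pair left out, FADS2 ranged from -0.2449 to 0.0017 and ELOVL7 from -0.3578 to 0.10. With median-ratio scaling the difference was -0.38 for FADS3 and -0.31 for HACD1. With no pseudocount the ratio of FADS2 to FADS1 differed by 0.86 and that of FADS3 to FADS2 by -0.95, since values near 1 TPM are compressed by a pseudocount of 1. The cause of the other shifts was not tested.

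Calls in the list of other desaturases and elongases numbered 2 with a pseudocount of 0.1, median-ratio scaling, quantile normalization and the 3 most abundant loci left out, and 1 to 2 with single libraries left out. In the malonyl-CoA list they numbered 2 with median-ratio scaling or quantile normalization, 0 with a pseudocount of 5 and 0 to 1 with single libraries left out. Without IP replicate 3 and PP replicate 2, 3199 of the 10896 tested loci were called. Of the tested genes, calls there numbered 3 of 9 for acyl-CoA synthetases, 2 of 10 for electron supply and 5 of 6 for malonyl-CoA. They numbered 2 of 5 for other desaturases and elongases, 4 of 11 for peroxisomal genes and 2 of 11 for phospholipid genes. For regulators it was 9 of 13 and for sphingolipid genes 2 of 8.

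With the replicate number as a block, 3 loci and no member were called, and the malonyl-CoA list had 0 calls. Deviations of libraries with the same number correlated at -0.53, 0.20 and 0.22, so no pairing by number was seen. With 3 libraries per phase these values cannot exclude one.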
